A study of Homo sapiens with 10 samples.

Results

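The 10 BCL2 family genes described here, BCL2, BCL2L1, MCL1, BAX, BAK1, BBC3, PMAIP1, BCL2L11, BID and BIK, are named regulators of apoptosis and were taken as a fixed list of symbols, of 58395 genes counted. They were measured by RNA-seq in HeyA8, an established human ovarian cancer cell line, after reverse transfection of siRNA duplexes at 10 nM. The 10 libraries fall into 5 groups of 2: siNT1, a non-targeting control duplex, at 24 h and 48 h; siGGGGGC at 24 h and 48 h; and siGGCAGU at 48 h. Every group received a duplex, the passenger strands carried a chemical modification, and no group of untransfected cells was analysed here. The other duplexes carry the name of their seed, the stretch from position 2 to position 7 of the guide, by which small RNAs recognise sites in transcripts. The sample titles do not give these seed names. Libraries titled siMxy were taken as siGGGGGC, and those titled si34a as siGGCAGU. Duplicates were wells of a single cell line, so every spread and p-value below measures the spread between wells and libraries.

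Cells commit to intrinsic apoptosis when the outer membrane of the mitochondrion is opened. BAX and BAK1 are the effectors that form the openings. BCL2, BCL2L1 (which encodes BCL-XL) and MCL1 are survival members that hold the effectors and their activators in check. The BH3-only members are stress sensors that bind survival members or activate the effectors, and here they are BBC3 (PUMA), PMAIP1 (NOXA), BCL2L11 (BIM), BID and BIK. Counts per gene cover all isoforms, so the long and short forms of BCL2L1 and MCL1, which act in opposite ways, were not separated.

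The seeds are shown first because the members differ in whether their 3′ UTR holds a match. In the human mature miRNAs of RefSeq (GRCh38.p14), GGCAGU stands at positions 2 to 7 of miR-34a-5p and miR-449a, and GGGGGC at the same positions of miR-1237-5p and miR-4488. Their sequences follow, 5′ to 3′, with positions 2 to 8 in capitals.
hsa-miR-34a-5p: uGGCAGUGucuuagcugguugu
hsa-miR-449a: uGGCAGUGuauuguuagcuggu
hsa-miR-1237-5p: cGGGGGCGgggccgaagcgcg
hsa-miR-4488: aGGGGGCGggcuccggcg

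The word that pairs with the siGGCAGU seed is ACTGCC, and the word for siGGGGGC is GCCCCC. Both were searched on the sense strand of the longest annotated 3′ UTR of each member. ACTGCC was found in 5 members and GCCCCC in 3. Over 19248 protein-coding genes, 32.66% of the longest 3′ UTRs held ACTGCC and 30.16% held GCCCCC. BCL2L1, PMAIP1 and BCL2L11 held neither word. BCL2, a described target of miR-34a, had 2 copies of ACTGCC, at bases 203 and 4583 of a 3′ UTR of 5279 bases. The copies in BCL2 and BAK1 and the GCCCCC copies are printed because they are the sites to which the changes below can be set. They are 30 bases of the sense strand from hg38, with the word in capitals.
BCL2 first ACTGCC, word at chr18:63128417-63128422, minus strand: aatcagctatttACTGCCaaagggaaatat
BCL2 second ACTGCC, word at chr18:63124037-63124042, minus strand: cggttcatctggACTGCCccagaaaaataa
BAK1 ACTGCC, word at chr6:33573188-33573193, minus strand: ccctccggccatACTGCCtttgcagttgga
BAX GCCCCC, word at chr19:48961638-48961643, plus strand: agatgggctgagGCCCCCagctgccttgga
BBC3 GCCCCC, word at chr19:47221146-47221151, minus strand: ctgcccgtgaccGCCCCCcgccccatcaat
BID GCCCCC, word at chr22:17734735-17734740, minus strand: ccccgggagttaGCCCCCtggtaatagctg
Site types are given for the guides of the duplexes, which have A at position 8, where the miRNAs printed above have G. They do not carry over to those miRNAs. The first BCL2 copy is an 8mer for siGGCAGU, with a match to guide position 8 before the word and an A after it. It was the only 8mer among the members. The BAK1 copy has the match at position 8 without the A, and the BAX copy of GCCCCC has the A without the match. Each of MCL1, BAX and BIK held a single ACTGCC with neither. A match is a description of the sequence, not evidence that a guide was bound there. In the shortest annotated 3′ UTR of each gene, the words were found in 3 members (ACTGCC) and 1 member (GCCCCC), against 15.54% and 15.86% of all genes.

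Total counts per library ranged from 19781445 to 42428986, and RN7SL2 and SNORD3A, 2 small RNA genes, took between 19.83% and 31.96% of them. The first siNT1 library at 24 h stood apart, with 33365 genes detected against 25238 to 28703 in the others. For the members, calls involving 24 h that changed without it are given. Genes of the further lists below were not checked without it. EIF5A, a translation factor gene, was used to check that the libraries titled siMxy were those of siGGGGGC. The reading of si34a as siGGCAGU had no such check. It was lower with siGGGGGC than with siNT1 by 2.09 at 24 h and 3.48 at 48 h on the log2 scale, and lower with siGGCAGU by 0.86. The authors had picked EIF5A for its fall with siGGGGGC in HeyA8 at 24 h, so it is not an independent check. The cells expressed KRT8, KRT18, PAX8, VIM, CDH2 and ZEB1, whereas the epithelial genes CDH1 (1 to 26 counts), MUC16 (0 to 26), KRT19 (8 to 38) and EPCAM (8 to 51) were low and WT1 had 31 to 191 counts. Of the epithelial markers 6 of 8 could be tested, and at 48 h 4 were lower and 0 higher with siGGGGGC and all 3 mesenchymal markers were lower, and their part in the results below was not tested. The leukocyte markers PTPRC, CD3E and CD68 had 0 to 6 counts per library, and the endothelial markers PECAM1, VWF and CDH5 had 0 to 28. In bulk RNA, a change per cell and a change in which cells remained cannot be told apart.

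Levels between genes were compared as CPM (counts scaled to TMM library size) per kilobase of exon. MCL1 was the most abundant member in siNT1 cells, at 48.2 ± 1.64 (SD, n = 2) at 24 h and 55.7 ± 0.409 at 48 h. BAX followed with 38.7 ± 1.06 and PMAIP1 with 18.6 ± 0.748 in siNT1 at 48 h. On this scale BAK1 (10.4 ± 0.13) and BID (10.2 ± 0.458) did not differ beyond their spread, their libraries overlapping in siNT1 at both times. Below them came BCL2L1 at 6.79 ± 0.627 and BBC3 at 2.22 ± 0.0751. BCL2 (0.503 ± 0.124), BIK (0.226 ± 0.00879) and BCL2L11 (0.178 ± 0.0297) were each below 1. Parts of this order depend on the length used. With the longest transcript in place of all exons, BID stood at 18.1 and BAK1 at 10.4 in siNT1 at 48 h. By the same length MCL1 stood at 76.2 and BAX at 73.8. The low end of the family rests on few reads, with 8 to 79 raw counts for BCL2L11 and 2 to 59 for BIK per library.

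**Figure D1:**
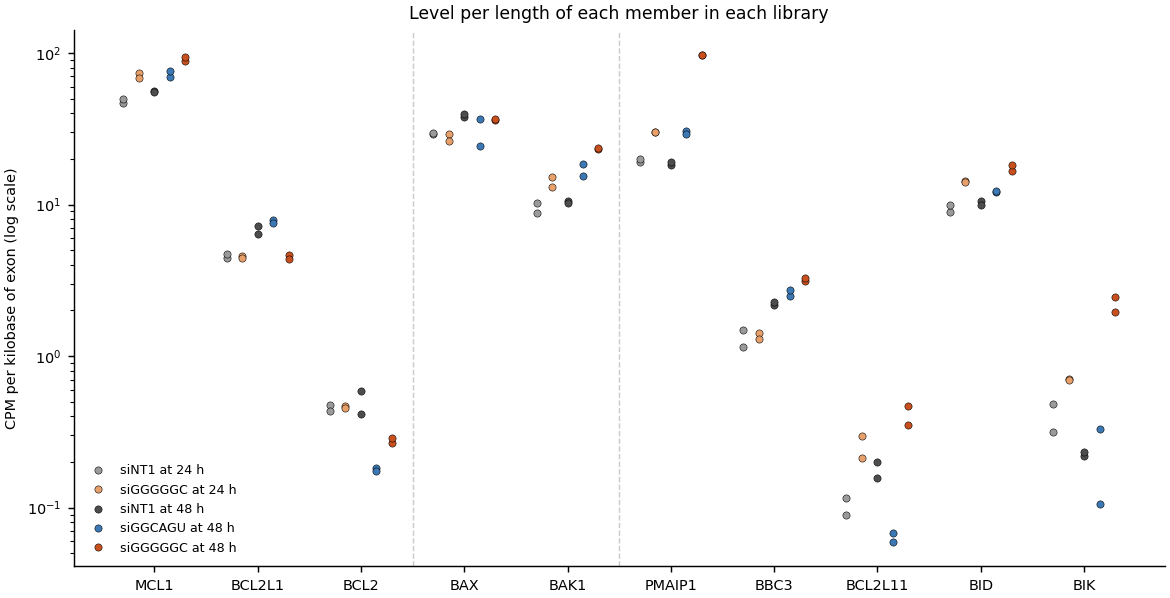
Level of each member in each of the 10 libraries, in CPM per kilobase of exon on a log axis; each point is a library and colours are the 5 groups. MCL1 and BAX sit at the top in siNT1, PMAIP1 reaches 97.2 with siGGGGGC at 48 h, and BCL2, BCL2L11 and BIK lie lowest.

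The order changed most with siGGGGGC at 48 h. PMAIP1 then stood at 97.2 ± 0.586, beside MCL1 at 91.4 ± 4.0, and the libraries of the pair did not overlap. That order depends on the length used. With the longest transcript in place of all exons, MCL1 stood at 125 and PMAIP1 at 112. BIK stood at 2.21 ± 0.373 and BCL2L11 at 0.409 ± 0.0821, both above BCL2 (0.277 ± 0.0152), which was then the least abundant of the 10. With siGGCAGU the order of the first 7 was as in siNT1 at 48 h, but BAX (30.4 ± 8.58) and PMAIP1 (30.0 ± 1.06) overlapped, and BIK (0.218 ± 0.159) overlapped BCL2 (0.179 ± 0.00623).

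Summed over the 3 survival members, MCL1 made up 88.4% ± 0.979 of the level in siNT1 at 48 h, 90.2% ± 0.834 with siGGCAGU and 95% ± 0.381 with siGGGGGC. BCL2 made up 0.798% ± 0.182, 0.223% ± 0.0215 and 0.288% ± 0.00464 in the same groups. Among the 5 BH3-only members, PMAIP1 took 59.1% ± 1.82 in siNT1 at 48 h and 80.7% ± 0.955 with siGGGGGC. The summed BH3-only level divided by the summed survival level was 0.501 ± 0.0149 in siNT1, 0.561 ± 0.042 with siGGCAGU and 1.25 ± 0.0281 with siGGGGGC at 48 h. At 24 h this ratio was 0.578 ± 0.00295 in siNT1 and 0.614 ± 0.0307 with siGGGGGC. These ratios are of RNA, are given without a test, and say nothing of the proteins, several of which turn over fast.

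Which members changed with each duplex was asked with edgeR's quasi-likelihood test over 16905 genes, in which all 10 members passed the filter on low counts. With siGGGGGC at 24 h, 5 members were higher and 0 lower, where 10.6% of all genes tested were called higher and 8.32% lower. Without the first siNT1 library at 24 h, or without the first siGGGGGC library, 3 were higher. At 48 h, 7 members were higher and 2 lower, against 27.8% and 27.5% of all genes. With siGGCAGU at 48 h, 4 were higher and 3 lower, against 27.8% and 24.9%. The median log2 fold change of the members was 0.57, 0.74 and 0.21 in these comparisons, while that of all genes tested was 0.00, -0.01 and 0.02. Of all genes called, 56.1%, 50.3% and 52.8% were higher, and 35.5%, 37.7% and 40.6% when libraries were scaled by their totals alone, under which 3 members at 24 h and 2 with siGGCAGU were higher. MCL1, BAK1, PMAIP1 and BID were called higher in all 3 comparisons. Each comparison at 48 h used the same siNT1 libraries. With 2 libraries against 2, an exact permutation test cannot go below 0.333, so the calls rest on the spread that edgeR shares across genes and groups. That spread was not equal between groups. Over genes with a mean normalised count of at least 100, the log2 difference between duplicates had an SD of 0.147 (siNT1) and 0.179 (siGGGGGC) at 24 h. At 48 h it was 0.234 (siNT1), 0.277 (siGGCAGU) and 0.161 (siGGGGGC). The test takes no account of such differences between groups.

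**Figure D2:**
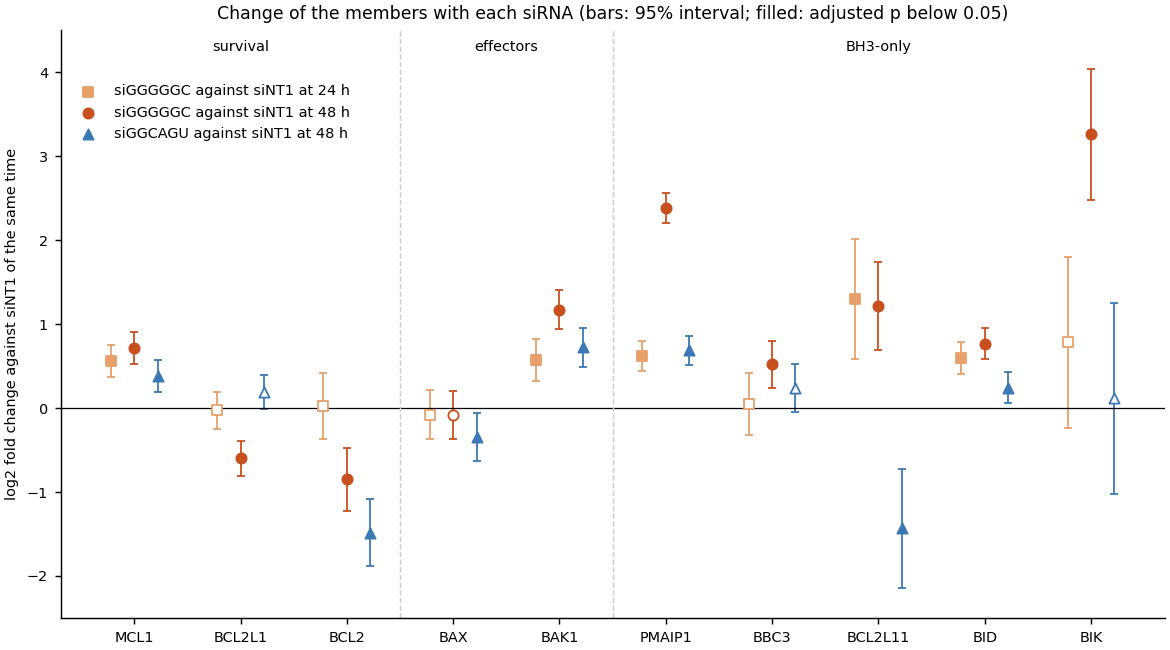
Log2 fold change of each member against siNT1 of the same time, for siGGGGGC at 24 h and 48 h and siGGCAGU at 48 h; points are estimates of edgeR from 2 libraries against 2, bars their 95% intervals, and filled points have an adjusted p below 0.05. PMAIP1 and BIK reach 2.38 and 3.26 with siGGGGGC at 48 h, and BCL2L11 lies above 0 with siGGGGGC and below 0 with siGGCAGU.

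Among the survival members MCL1 (chr1:150560895-150579738, minus strand), which keeps BAK1 in check, had normalised counts of 7604 and 7979 in siNT1 and 11910 and 11050 in siGGGGGC at 24 h. At 48 h it had 9053 and 8960 in siNT1, 11180 and 12330 in siGGCAGU, and 14330 and 15240 in siGGGGGC. Neither duplex's libraries overlapped the siNT1 libraries of their time. MCL1 rose 1.47-fold at 24 h and 1.64-fold at 48 h with siGGGGGC, a log2 fold change of 0.56 ± 0.0904 (SE) and 0.71 ± 0.0901, with adjusted p of edgeR by Benjamini-Hochberg of 0.000518 and 7.17e-06. With siGGCAGU it rose 1.31-fold (log2 0.38 ± 0.0898, adjusted p = 0.00204 by edgeR), a call that was lost when libraries were scaled by their totals alone (log2 0.23, adjusted p = 0.129) and with the compared libraries alone (log2 0.34, adjusted p = 0.0718). Its single ACTGCC copy is a 6mer.

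BCL2 (chr18:63123346-63320128, minus strand), the founding survival gene of the family, had normalised counts of 155.1 and 141.4 in siNT1 and 153 and 148.7 in siGGGGGC at 24 h. At 48 h the values were 193.6 and 136.3 in siNT1, 60.16 and 57.27 in siGGCAGU, and 87.18 and 94.23 in siGGGGGC. The 24 h groups overlapped, whereas at 48 h both siGGCAGU libraries lay below both siGGGGGC libraries, and these below both of siNT1. BCL2 fell to 0.358 times its siNT1 level with siGGCAGU, the duplex for which its 3′ UTR holds the 8mer printed above (log2 -1.48 ± 0.187, adjusted p = 7.28e-06 by edgeR). It fell to 0.555 times with siGGGGGC, for which no copy of GCCCCC was found (log2 -0.85 ± 0.177, adjusted p = 0.000809). The difference between the duplexes was called too, BCL2 being 1.55-fold higher with siGGGGGC than with siGGCAGU (log2 0.63 ± 0.207, adjusted p = 0.017). That difference was not called without the second siGGCAGU library (log2 0.59, adjusted p = 0.0881) or the second siGGGGGC library of 48 h (log2 0.58, adjusted p = 0.0884), nor on library totals alone (adjusted p = 0.0535).

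BCL2L1 (chr20:31664452-31723989, minus strand), the BCL-XL gene, moved differently with the 2 duplexes. Its normalised counts were 486.9 and 517.2 in siNT1 and 499.5 and 484.8 in siGGGGGC at 24 h. At 48 h they were 789.2 and 692.6 in siNT1, 856.6 and 828.6 in siGGCAGU, and 504.1 and 474.3 in siGGGGGC. The siGGGGGC libraries at 48 h therefore stood near the 24 h libraries, below all others of that time. BCL2L1 fell to 0.661 times its siNT1 level with siGGGGGC at 48 h (log2 -0.60 ± 0.0978, adjusted p = 9.47e-05 by edgeR). With siGGCAGU the log2 fold change was 0.19, with a 95% interval of -0.01 to 0.39 (adjusted p = 0.112, edgeR), a value that was called without the first siNT1 library (log2 0.27, adjusted p = 0.0466). Of its exon bases, 41.3% overlap the antisense gene ABALON, which had 20 to 55 counts per library against 339 to 1209 of BCL2L1. Without a stated strand setting, reads of the pair cannot be told apart there.

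The effectors behaved unlike each other. BAK1 (chr6:33572547-33580293, minus strand), which sits in the mitochondrial membrane, had normalised counts of 506 and 585.3 in siNT1 and 871.9 and 746.4 in siGGGGGC at 24 h. At 48 h it had 601.8 and 591.2 in siNT1, 893.2 and 1072 in siGGCAGU, and 1326 and 1363 in siGGGGGC. No treated library overlapped the controls of its time. BAK1 rose 1.48-fold at 24 h (log2 0.57 ± 0.116, adjusted p = 0.00292 by edgeR) and 2.25-fold at 48 h with siGGGGGC (log2 1.17 ± 0.109, adjusted p = 3.16e-07), and 1.65-fold with siGGCAGU (log2 0.73 ± 0.109, adjusted p = 4.51e-05). The rise with siGGCAGU went with a 3′ UTR that holds ACTGCC as a 7mer. The call at 24 h was lost without the first siNT1 library (log2 0.47, adjusted p = 0.0676), without the first siGGGGGC library (log2 0.46, adjusted p = 0.0566) and on library totals alone (log2 0.48, adjusted p = 0.0742).

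BAX (chr19:48954815-48961798, plus strand), the effector that moves to mitochondria from the cytosol, had 1959 and 1981 normalised counts in siNT1 and 1972 and 1757 in siGGGGGC at 24 h. At 48 h it had 2553 and 2654 in siNT1, 1635 and 2450 in siGGCAGU, and 2445 and 2479 in siGGGGGC. The siGGCAGU libraries were far apart, and they also differed in total counts (21198854 and 32113454) and in the share of RN7SL2 and SNORD3A (31.96% and 24.22%), whose part in this was not tested. With siGGGGGC the log2 fold change was -0.08 at both times, with 95% intervals of -0.37 to 0.21 at 24 h and -0.36 to 0.20 at 48 h. The longest 3′ UTR of BAX holds 1 copy each of GCCCCC and ACTGCC, and its shortest holds neither. Their part in the values of BAX was not tested. With siGGCAGU BAX was called lower (log2 -0.34 ± 0.133, adjusted p = 0.0411 by edgeR), but without the first siGGCAGU library the value was -0.09 (adjusted p = 0.469), and without the second it was -0.67 (adjusted p = 1.95e-05). In all, 7 of the 10 libraries ended the call when left out singly, with adjusted p between 0.0564 and 0.469, as did library totals alone (adjusted p = 0.0533), the compared libraries alone (adjusted p = 0.0872) and a mean count of at least 50 (adjusted p = 0.0554).

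PMAIP1 (chr18:59899996-59904305, plus strand), the NOXA gene whose product binds MCL1, had the smallest SE of the 10 members in all 3 comparisons with siNT1. Its normalised counts were 1088 and 1133 in siNT1 and 1696 and 1715 in siGGGGGC at 24 h. At 48 h they were 1028 and 1088 in siNT1, 1749 and 1663 in siGGCAGU, and 5497 and 5544 in siGGGGGC. The siGGCAGU libraries at 48 h thus lay near the siGGGGGC libraries of 24 h, and the siGGGGGC libraries of 48 h stood far above all others. PMAIP1 rose 1.54-fold at 24 h (log2 0.62 ± 0.084, adjusted p = 0.000119 by edgeR) and 5.22-fold at 48 h with siGGGGGC (log2 2.38 ± 0.0838, adjusted p = 1.52e-11). With siGGCAGU it rose 1.61-fold (log2 0.69 ± 0.0819, adjusted p = 4.03e-06). These calls held under every alternative that was run, and neither seed word is in its 3′ UTR.

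BCL2L11 (chr2:111119378-111168444, plus strand), the BIM gene, changed in opposite directions with the 2 duplexes. Its normalised counts were 20.29 and 15.71 in siNT1 and 51.97 and 37.18 in siGGGGGC at 24 h. At 48 h they were 34.85 and 27.5 in siNT1, 10.46 and 11.9 in siGGCAGU, and 61.48 and 81.81 in siGGGGGC. All siGGGGGC libraries lay above the controls and both siGGCAGU libraries below them. With siGGGGGC BCL2L11 rose 2.45-fold at 24 h (log2 1.29 ± 0.335, adjusted p = 0.0133 by edgeR) and 2.32-fold at 48 h (log2 1.22 ± 0.244, adjusted p = 0.000585). With siGGCAGU it fell to 0.37 times (log2 -1.43 ± 0.332, adjusted p = 0.00191), without a copy of ACTGCC in its longest 3′ UTR. The fold at 24 h rests on 12 to 36 raw counts, and its call was lost without either siNT1 library (adjusted p = 0.0527 and 0.0989), without the first siGGGGGC library (adjusted p = 0.133) and on library totals alone (adjusted p = 0.0507). Antisense MIR4435-2HG, with 624 to 1958 counts per library, overlaps 10.8% of the exon bases of BCL2L11, and reads there cannot be assigned to a strand.

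BIK (chr22:43110750-43129712, plus strand), a BH3-only gene whose product resides mainly at the endoplasmic reticulum, had the largest fold change among the members, with siGGGGGC at 48 h. Its normalised counts were 11.93 and 7.856 in siNT1 and 17.32 and 17.16 in siGGGGGC at 24 h. At 48 h they were 5.422 and 5.729 in siNT1, 2.616 and 8.182 in siGGCAGU, and 48.06 and 61.1 in siGGGGGC. Only the siGGGGGC libraries of 48 h were above 20. BIK rose 9.59-fold with siGGGGGC at 48 h (log2 3.26 ± 0.365, adjusted p = 2.12e-06 by edgeR), on 43 and 59 raw counts against 7 and 10. At 24 h the log2 fold change was 0.78 with a 95% interval of -0.24 to 1.80, and with siGGCAGU it was 0.12 with an interval of -1.02 to 1.26, and neither was called.

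BID (chr22:17734138-17774770, minus strand), which links death receptors to mitochondria after its cleavage by caspase 8, had 1032 and 1135 normalised counts in siNT1 and 1643 and 1624 in siGGGGGC at 24 h. At 48 h it had 1212 and 1138 in siNT1, 1386 and 1396 in siGGCAGU, and 1919 and 2082 in siGGGGGC. Groups of the same time did not overlap. BID rose 1.51-fold at 24 h (log2 0.59 ± 0.089, adjusted p = 0.000275 by edgeR) and 1.7-fold at 48 h with siGGGGGC (log2 0.77 ± 0.0862, adjusted p = 2.19e-06). The longest 3′ UTR of BID holds a GCCCCC copy and its shortest holds none. With siGGCAGU BID was 1.18-fold higher (log2 0.24 ± 0.0865, adjusted p = 0.0268), a call lost with DESeq2 (adjusted p = 0.0722), with the compared libraries alone (adjusted p = 0.214), on library totals alone (log2 0.08, adjusted p = 0.597) and with no filter (log2 0.16, adjusted p = 0.391). This call was also lost without either siGGGGGC library of 24 h (adjusted p = 0.0541 and 0.0539), the second siNT1 library of 48 h (adjusted p = 0.147) or the second siGGCAGU library (adjusted p = 0.0621).

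BBC3 (chr19:47220822-47232766, minus strand), the PUMA gene, whose product binds the survival members, had 94.27 and 123.1 normalised counts in siNT1 and 116.9 and 107.2 in siGGGGGC at 24 h. At 48 h it had 179.7 and 188.5 in siNT1, 205.3 and 226.9 in siGGCAGU, and 257.1 and 271.3 in siGGGGGC. The groups overlapped at 24 h and stood apart at 48 h. BBC3 rose 1.43-fold with siGGGGGC at 48 h (log2 0.52 ± 0.133, adjusted p = 0.00371 by edgeR), which was not called on library totals alone (log2 0.36, adjusted p = 0.0799). At 24 h the log2 fold change was 0.05 (95% interval -0.32 to 0.42), and with siGGCAGU it was 0.24 (95% interval -0.05 to 0.52), neither of them called.

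**Figure D3:**
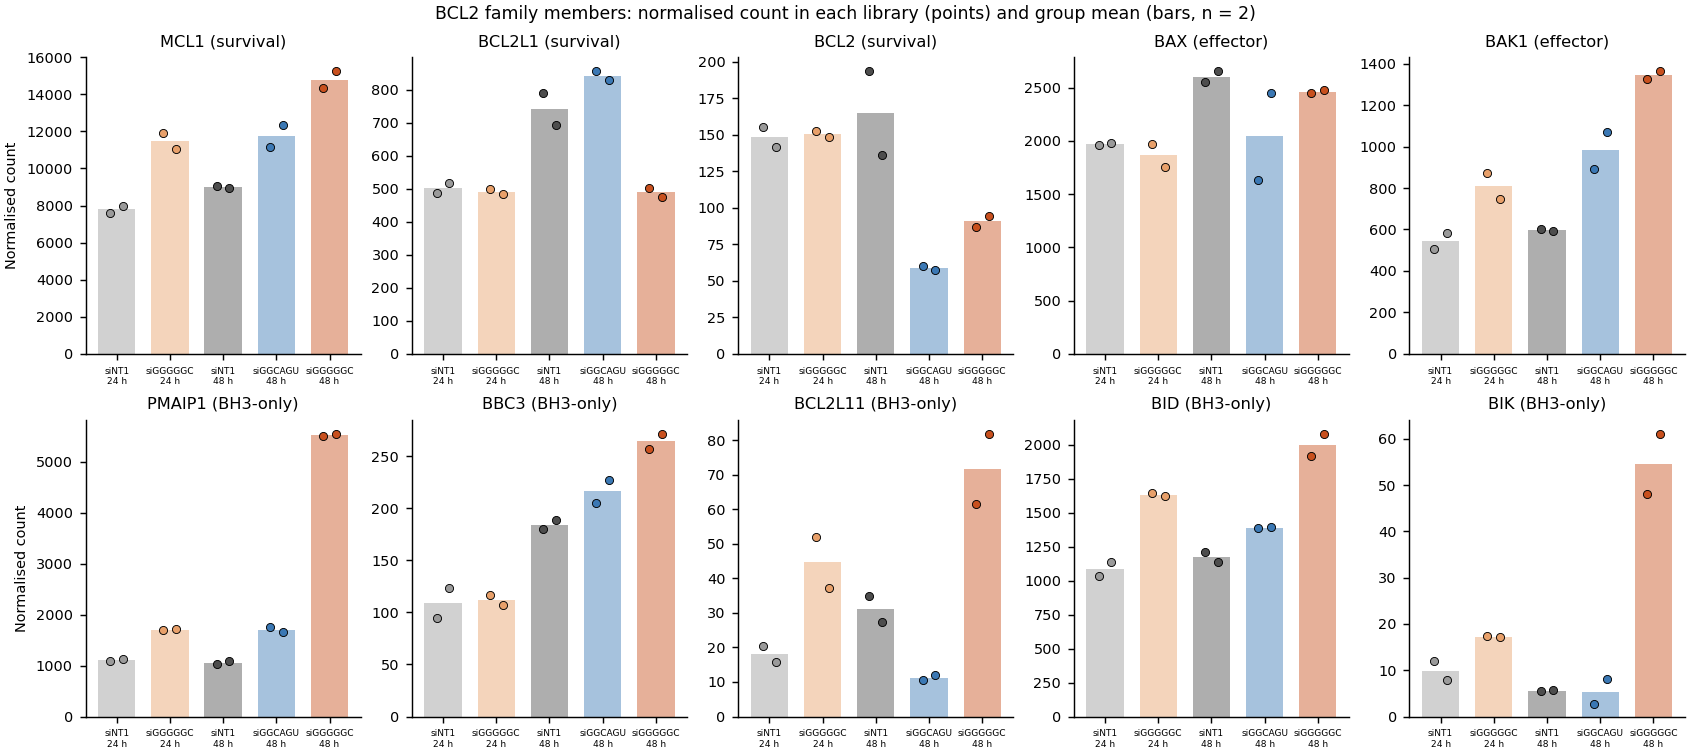
Normalised count of each member (vertical axis, from 0) in each library (points) with the mean of the 2 libraries of a group (bars), for siNT1 and siGGGGGC at 24 h and for siNT1, siGGCAGU and siGGGGGC at 48 h. PMAIP1 and BIK stand out in siGGGGGC at 48 h, BCL2 is low with both duplexes at 48 h, and the siGGCAGU libraries of BAX lie apart.

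The duplexes were also set against each other at 48 h, the time at which both were sampled at 10 nM. They differ in their 6mer seed. Of the 10 members, 7 were higher with siGGGGGC than with siGGCAGU and 1 was lower, against 26.7% and 27.6% of all genes. The differences were widest for BIK (8.84-fold, log2 3.14 ± 0.39, adjusted p = 5.87e-06 by edgeR), BCL2L11 (6.27-fold, log2 2.65 ± 0.309, adjusted p = 3.05e-06) and PMAIP1 (3.24-fold, log2 1.70 ± 0.0821, adjusted p = 2.64e-10). The BIK value rests on 2 and 11 raw counts with siGGCAGU, and was 4.31 without the second siGGCAGU library and 2.72 without the first. BAK1 was 1.36-fold, BID 1.44-fold and MCL1 1.26-fold higher with siGGGGGC. The MCL1 difference was not called without the second siGGGGGC library (log2 0.29, adjusted p = 0.0621). BCL2L1 was lower with siGGGGGC, at 0.581 times its level with siGGCAGU (log2 -0.78 ± 0.0988, adjusted p = 6.8e-06). For BAX (log2 0.26, 95% interval -0.02 to 0.55, adjusted p = 0.111) and BBC3 (log2 0.28, 95% interval -0.01 to 0.57, adjusted p = 0.0895) no difference was called. The BAX value depended on the siGGCAGU library kept, being 0.58 without the second (adjusted p = 8.98e-05) and 0.00 without the first (adjusted p = 0.978).

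Whether the siGGGGGC effect differed between 48 h and 24 h was tested as an interaction. It was larger at 48 h for 3 members and lower for 2, against 13.4% and 15.2% of all genes. The larger effects at 48 h were those of BIK (log2 difference 2.48 ± 0.638, adjusted p = 0.00872 by edgeR), PMAIP1 (1.76 ± 0.117, adjusted p = 1.08e-07) and BAK1 (0.60 ± 0.159, adjusted p = 0.0101). BIK had not been called at 24 h, and its mean in siNT1 was 9.895 normalised counts at 24 h and 5.575 at 48 h. BCL2 (-0.87 ± 0.256, adjusted p = 0.0182) and BCL2L1 (-0.57 ± 0.143, adjusted p = 0.00754) were called lower at 48 h and not at 24 h, and this difference itself passed the test. For MCL1 (0.16, 95% interval -0.12 to 0.43), BID (0.18, -0.09 to 0.44), BBC3 (0.47, 0.01 to 0.93, adjusted p = 0.12), BAX (-0.00, -0.41 to 0.41) and BCL2L11 (-0.08, -0.95 to 0.80), no difference between the times was called. The BIK difference was not called without the first siNT1 library at 24 h (2.13, adjusted p = 0.0979), that of BAK1 without the second siNT1 (0.47, adjusted p = 0.0859) or the second siGGGGGC library (0.48, adjusted p = 0.0736) of 24 h and on library totals alone (0.53, adjusted p = 0.112). That of BCL2 was lost without the second siNT1 or first siGGGGGC library of 24 h, or the first siNT1 or first siGGGGGC library of 48 h, with adjusted p between 0.0535 and 0.063.

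The control duplex shows how far members differed between the times. Time in culture, time after transfection and the change of media at 24 h cannot be told apart here. In siNT1 at 48 h against 24 h, 2 members were higher and 0 lower, against 9.37% and 7.2% of all genes. BBC3 rose 1.7-fold (log2 0.77 ± 0.15, adjusted p = 0.00448 by edgeR) and BCL2L1 rose 1.47-fold (log2 0.56 ± 0.0986, adjusted p = 0.00237). Without the first siNT1 library at 24 h neither was called (adjusted p = 0.0892 and 0.0509), and 0 members were higher. The lower BCL2L1 with siGGGGGC at 48 h was measured against this higher control. BAX stood 1.32-fold higher at 48 h (log2 0.40, adjusted p = 0.0527), and was called by DESeq2 (adjusted p = 0.0356), on library totals alone (adjusted p = 0.0404), with no filter (adjusted p = 0.000121), with the compared libraries alone (adjusted p = 0.00879) and without either siGGCAGU library (adjusted p = 0.00132 and 0.00125).

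Of 13 other BCL2 family genes, 12 could be tested, BCL2L10 having 2 counts in 1 library and 0 in the others, where a count of 0 allows up to 3. With siGGGGGC 3 were higher and 3 lower at 24 h, where 10.6% and 8.32% of all genes were called, and 6 higher and 3 lower at 48 h, against 27.8% and 27.5%. With siGGCAGU 5 were higher and 2 lower, against 27.8% and 24.9%. BMF is a BH3-only gene whose product binds a dynein light chain. At 48 h BMF had 7.745 and 8.02 normalised counts in siNT1, 45.77 and 43.14 in siGGCAGU, and 67.06 and 61.1 in siGGGGGC. Its libraries did not overlap the control with either duplex. Its log2 fold change was 3.00 ± 0.281 with siGGGGGC and 2.47 ± 0.293 with siGGCAGU. Raw counts were 10 and 14 in siNT1, 35 and 58 in siGGCAGU, and 60 and 59 in siGGGGGC. BMF passed the filter on low counts only through these libraries of the 2 duplexes, where it was high. Its rise is therefore given without a p-value, while the counts of genes called higher at 48 h include it. BCL2L2, which encodes the survival protein BCL-w, fell by 1.54 on the log2 scale with siGGGGGC at 48 h (adjusted p = 6.43e-06, edgeR), the largest fall of this list. With siGGCAGU the largest fall was that of BCL2L12 (log2 -1.18 ± 0.12, adjusted p = 7.15e-07, edgeR). At 24 h with siGGGGGC the largest were BCL2L12 (log2 0.42) and BCL2L2 (log2 -0.76). The mitophagy receptors BNIP3 and BNIP3L rose with both duplexes at 48 h, by 1.64 and 1.44 with siGGGGGC and by 0.69 and 1.26 with siGGCAGU on the log2 scale.

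**Figure D4:**
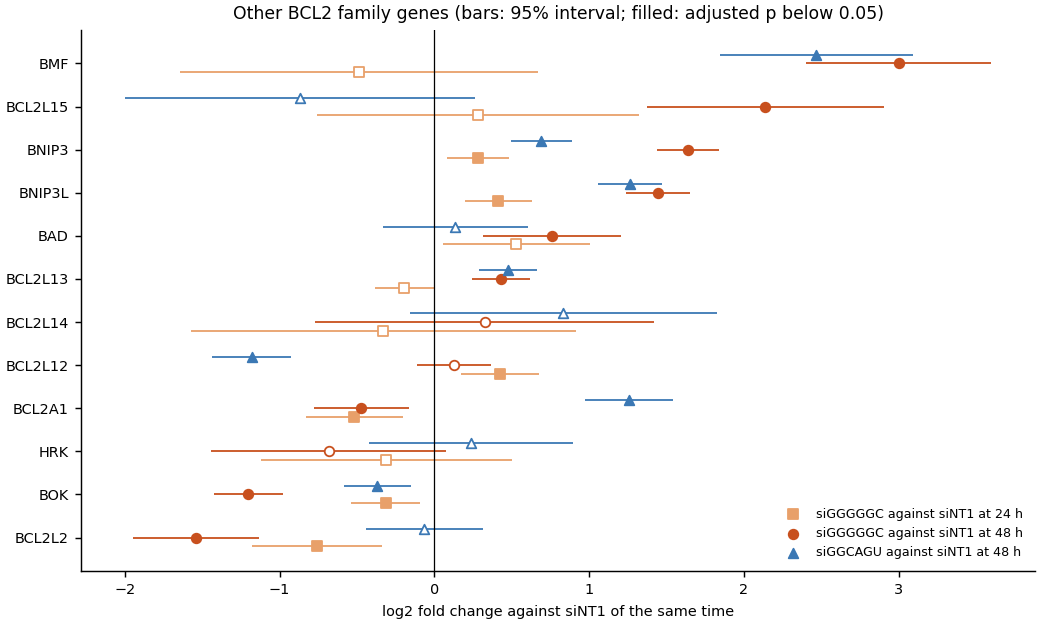
Log2 fold change against siNT1 of the same time for the 12 other BCL2 family genes that could be tested, with 95% intervals as bars and filled points for an adjusted p below 0.05, ordered by the value with siGGGGGC at 48 h. BMF lies at 3.00 and 2.47 at 48 h with siGGGGGC and siGGCAGU, and BCL2L2 at -1.54 with siGGGGGC. BMF passed the filter on low counts only through the 48 h libraries of these duplexes, where it was high.

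A further list of 21 mitochondrial factors, caspases and caspase inhibitors was tested. With siGGGGGC 4 were higher and 1, VDAC2, lower at 24 h (log2 -0.26, adjusted p = 0.0493 by edgeR), where 10.6% and 8.32% of all genes were called. At 48 h 10 were higher and 5 lower, against 27.8% and 27.5%. With siGGCAGU 7 were higher and 4 lower, against 27.8% and 24.9%, so the number lower was near or below the share of all genes at 48 h. BIRC3, an inhibitor of apoptosis that acts in NF-κB signalling, showed the largest rise with siGGGGGC at both times, at 24 h from 250.6 and 261.9 normalised counts to 714.6 and 620.6 and at 48 h from 415.1 and 451.4 to 2523 and 2476. Its log2 fold change was 1.38 ± 0.107 at 24 h (adjusted p = 6.03e-07, edgeR) and 2.53 ± 0.0954 at 48 h (adjusted p = 2.86e-11). CASP6 showed the largest fall with siGGGGGC at 48 h (log2 -0.86, adjusted p = 0.000159 by edgeR). With siGGCAGU the largest fall was that of BIRC5, the survivin gene, to 1463 and 1340 normalised counts from 5494 and 6165 (log2 -2.06 ± 0.0931, adjusted p = 1.24e-10 by edgeR), and the largest rise that of ENDOG, a mitochondrial nuclease (log2 1.38 ± 0.369, adjusted p = 0.00536). BIRC5 with siGGGGGC was higher than siNT1 by 0.59 at 24 h and 0.27 at 48 h, and the duplexes differed by 2.33 ± 0.094 (adjusted p = 4.15e-11).

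Of 9 binding partners and ubiquitin regulators of family proteins, 2 were higher and 0 lower with siGGGGGC at 24 h, against 10.6% and 8.32% of all genes. At 48 h 2 were higher and 1 lower, below the 27.8% and 27.5% of all genes. With siGGCAGU 4 were higher and 1 lower, against 27.8% and 24.9%. FBXW7, part of a ubiquitin ligase for which MCL1 is a substrate, rose with siGGGGGC at 48 h (log2 0.96 ± 0.0823, adjusted p = 1.34e-07 by edgeR). BECN1, an autophagy protein bound by BCL2, rose with siGGCAGU (log2 0.72 ± 0.0931, adjusted p = 1e-05). DYNLL1, a dynein light chain gene, showed the largest rise with siGGGGGC at 24 h (log2 0.57, adjusted p = 0.00215 by edgeR). The largest fall with either duplex at 48 h was that of DYNLL2 (log2 -0.66 and -0.67). The siGGCAGU libraries of DYNLL2 lay far apart, at 669.6 and 1373 normalised counts against 1688 and 1616 in siNT1.

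Of 13 transcription factors known to act on members, 12 could be tested. With siGGGGGC 1 was higher and 2 lower at 24 h, against 10.6% and 8.32% of all genes, and 4 higher and 4 lower at 48 h, near the 27.8% and 27.5% of all genes. With siGGCAGU 5 were higher and 4 lower, against 27.8% and 24.9%. DDIT3 (CHOP), a factor of the stress of the endoplasmic reticulum that can induce BCL2L11 and BBC3, had 71.25 and 79.63 normalised counts in siNT1, 387.1 and 333.2 in siGGCAGU, and 361 and 378 in siGGGGGC at 48 h. It rose with both duplexes, by 2.28 ± 0.14 with siGGGGGC (adjusted p = 4.03e-09, edgeR) and 2.24 ± 0.14 with siGGCAGU (adjusted p = 3.97e-09) on the log2 scale. At 24 h the largest rise of this list was that of JUN (log2 0.39, adjusted p = 0.00969). MYC fell with siGGGGGC at 48 h (log2 -1.47 ± 0.0871, adjusted p = 2.83e-09), and E2F1 fell furthest with siGGCAGU (log2 -2.04 ± 0.127, adjusted p = 3.65e-09 by edgeR). At 24 h the largest fall was that of ATF4 (log2 -0.62, adjusted p = 0.000184).

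Between the duplexes at 48 h, 4 of the 12 other family genes tested were higher and 4 lower with siGGGGGC than with siGGCAGU, where 26.7% and 27.6% of all genes were called. The same counts were 9 and 8 for the 21 mitochondrial factors, caspases and inhibitors, 1 and 1 for the 9 binding partners and ubiquitin regulators, and 4 and 2 for the 12 transcription factors. MYC was 0.32 ± 0.0895 higher with siGGGGGC than with siGGCAGU (adjusted p = 0.00703, edgeR) and E2F1 1.08 ± 0.132 higher (adjusted p = 5.27e-06) on the log2 scale. For DDIT3 the difference was 0.04, with a 95% interval of -0.22 to 0.31 (adjusted p = 0.786).

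Across the 10 libraries, the genes whose log2 CPM was most like that of each member were sought among 9979 genes with a mean normalised count of at least 100. BIK, BCL2L11 and PMAIP1 had the widest range of group means, at 3.04, 2.47 and 2.38 on the log2 scale. PMAIP1 was nearest to ZNF655 (Pearson's r = 0.9985) and GCLM (r = 0.9948), BCL2L11 to BICC1 (r = 0.9805) and CDC42EP4 (r = 0.9785), and BIK to USP12 (r = 0.9687) and PIGX (r = 0.9608). These are descriptions over the same 10 libraries in 5 groups, chosen as the highest of many, and carry no test.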

How the data were processed

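HeyA8 cells were transfected in duplicate wells at 10 nM, and total RNA depleted of ribosomal RNA was sequenced paired-end. The authors trimmed the reads, aligned them to hg38 and counted reads per Ensembl gene with htseq, with no strand setting given. For the alignment the methods name TopHat or STAR, and the processing record read here names TopHat. The deposited values are raw counts per gene, with 0 entries that name no gene. The authors' own tables of comparisons, with mean normalised counts, log2 fold changes and p-values in the columns of DESeq2, were not used.

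Counts were tested with edgeR 4.0.16 in R 4.3.3 (quasi-likelihood F test, TMM, 5 groups in a single fit of 10 libraries, 5 residual degrees of freedom, filterByExpr, Benjamini-Hochberg over 16905 genes). A gene was called at an adjusted p below 0.05. The SE is the log2 fold change divided by the square root of F, and intervals are 95%. Normalised counts are counts scaled by TMM library size, and levels between genes were divided by the length of all exons in GENCODE release 44, in which 98.9% of the gene identifiers were found. On simulated counts for siGGGGGC against siNT1 at 24 h over 16905 genes, 62% of genes changed 1.5-fold and 96% changed 2-fold were recovered, with 9 false calls. The changed genes were drawn from those with mean counts above BIK and BCL2L11, and all genes and groups had the same dispersion. These rates therefore do not cover members with low counts or groups that differ in spread. All precision stated covers 2 libraries per group, and low counts such as those of BIK carry counting error as well.

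Named were the 10 members, the largest passing genes of 4 further lists in each direction, EIF5A as a label check, and the genes nearest to the members of widest range. BNIP3 and BNIP3L were named beyond this rule. Members and lists were chosen with earlier results of these data known. A gene of the transcription factor list is not reported here by name. Alternatives were RLE factors, library totals alone, DESeq2 1.42.0, no filter, a mean count of at least 50, only the libraries compared, removal of RN7SL2 and SNORD3A, a replicate block, and each library left out in turn.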

Additional observations from a re-analysis of the deposited data

Results flagged for a closer look

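The effect of siGGGGGC differed between 48 h and 24 h, by the interaction term of edgeR's quasi-likelihood test with Benjamini-Hochberg adjustment, for 5 of the 10 members, 3 of them higher and 2 lower, where 13.4% and 15.2% of all genes tested were called. In the lists, 5 were higher and 2 lower of 12 other family genes, 6 and 4 of 21 mitochondrial factors, caspases and inhibitors, 1 and 0 of 9 binding partners and ubiquitin regulators, and 4 and 4 of 12 transcription factors. The log2 differences (48 h minus 24 h) of the members were 2.48 for BIK, 1.76 for PMAIP1, 0.60 for BAK1, -0.57 for BCL2L1 and -0.87 for BCL2. For PMAIP1 the difference was called under every alternative run. For BCL2L1 it was called with every library left out in turn, with the value between -0.68 and -0.49. For BIK, BAK1 and BCL2 it was not, at adjusted p up to 0.0979, 0.0859 and 0.063, and for BAK1 it was not called on library totals alone either (0.53, adjusted p = 0.112).

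At the ends of these lists the differences were 3.49 for BMF, 2.67 for DDIT3 (adjusted p = 7.98e-07, edgeR), 1.14 for BIRC3 (adjusted p = 3.18e-05) and 0.74 for FBXW7 (adjusted p = 0.000304). BOK, an effector-like family member, differed by -0.89 (adjusted p = 0.000417), CASP6 by -0.89 (adjusted p = 0.00601) and E2F1 by -0.90 (adjusted p = 0.000906). DDIT3 had 106.2 and 129.6 normalised counts in siNT1 and 92.39 and 87.23 in siGGGGGC at 24 h, below the control at that time and above it at 48 h. BMF had 8.353 and 7.856 normalised counts in siNT1 and 4.331 and 7.15 in siGGGGGC at 24 h. Its raw counts there were 7 and 6, and 3 and 5. BMF passed the filter on low counts only through the 48 h libraries of the duplexes, where it was high. Its difference is therefore given without a p-value.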

How the results depend on the processing

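Depth limits BIK and BCL2L11, both removed by a mean count of at least 50. Under that filter BAX was not called, and 1 member was lower with siGGCAGU in place of 3. Of 60 member values, the replicate block changed the call of 0. The count of members higher was 5 with and without the block for siGGGGGC at 24 h. Same-numbered wells correlated between -0.361 and 0.145 in their deviations, and the numbers were not taken to pair the samples. Of 466 member values under alternatives other than leaving out a single library, 438 kept their direction and side of the threshold. Of 600 with a library left out 554 did. Library totals alone moved the median log2 fold change of all genes to -0.17 (siGGGGGC at 48 h), -0.13 (siGGCAGU) and 0.23 (siNT1 by time), and the share of calls that were higher from 56.1% to 35.5% (24 h), 50.3% to 37.7% (48 h), 52.8% to 40.6% (siGGCAGU) and 56.6% to 93.8% (siNT1). Genes called went from 1797 to 781 higher (24 h), and from 1584 to 2729 higher and 1217 to 179 lower (siNT1). With no filter 2425 were higher and 728 lower (siNT1), and with only the compared libraries 2488 were lower in place of 1406 (24 h). Members higher on library totals were 3 (24 h), 2 (siGGCAGU) and 4 (siNT1), against 5, 4 and 2. They were 2 for siGGCAGU with only the compared libraries and 4 for siNT1 with no filter. With a library left out, members higher ranged from 3 to 5 (24 h) and 0 to 3 (siNT1), and members lower in the interaction from 1 to 2. Without the first siNT1 library at 24 h, 772 genes were higher and 699 lower with siGGGGGC, and 348 higher and 198 lower with time in siNT1. Leaving out any library of these comparisons gave as few as 670 lower (24 h) and 132 lower (siNT1), and 1487 higher in place of 2269 in the interaction. The direction of values that were not called turned on library totals for BBC3 (-0.044) and BCL2 (-0.071) at 24 h, BIK with siGGCAGU (-0.007) and PMAIP1 in siNT1 (0.169, and 0.015 with no filter). It turned for BAX in the interaction with RLE (0.006), a mean of at least 50 (0.016) and DESeq2 (0.006). With libraries left out it ranged at 24 h from -0.156 to 0.009 (BAX), -0.134 to 0.263 (BBC3), -0.070 to 0.029 (BCL2L1) and -0.026 to 0.094 (BCL2). It ranged from -1.06 to 0.54 for BIK with siGGCAGU, from -0.095 to 0.069 (BAX) and -0.32 to 0.17 (BCL2L11) in the interaction, and from -0.11 to 0.39 for BCL2 in siNT1. The shortest 3′ UTR held ACTGCC in 3 members and GCCCCC in 1. With the longest transcript the MCL1 share was 90.8% in siNT1 at 24 h, and the BH3-only ratio 1.15 with siGGGGGC at 48 h. The causes were not tested.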
